A study of Mus musculus with 8 samples.

Results

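The genes described here are 10 mouse ADAM genes that are known for their RNA or protein in male germ cells: Adam1a, Adam1b, Adam2, Adam3, Adam5, Adam18, Adam24, Adam29, Adam30 and Adam32. They were chosen by name, and all 10 were among the 23343 genes of the RNA-seq tables. Pachytene spermatocytes (PS), the cells in the long prophase of the first meiotic division, were compared with round spermatids (RS), the haploid cells that follow meiosis. All samples came from testes of adult C57BL/6 mice. RNA-seq was made from PS and RS of mice that lack both Rnf8, a ubiquitin ligase gene, and Scml2, an X-linked Polycomb gene (Rnf8- and Scml2-dKO, below dKO), and ChIP-seq of acetylated lysine 27 of histone H3 (H3K27ac), a mark of active promoters and enhancers, from wild-type PS and RS. Each assay had 2 replicates per stage, 8 libraries in all. Both deletions were present in every cell of the animal, and cells of a dKO preparation came by gravity sedimentation from the testes of 1 male. RNA of wild-type mice was not analysed here, so RS were compared with PS within the dKO, and RNA and H3K27ac differ in genotype as well as in what they measure.

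ADAM proteins are anchored in the membrane and carry a prodomain, a metalloprotease-like domain and a disintegrin domain, from which the family has its name. Many of those made in the testis lack the zinc-binding residues of an active protease and are thought to act in adhesion and in the assembly of complexes on the sperm surface. ADAM2 pairs with ADAM1A in the endoplasmic reticulum of germ cells and with ADAM1B in fertilin, the complex found on sperm. ADAM3 reaches the sperm surface only when several chaperones and partners, ADAM1A and ADAM2 among them, are present, and sperm without it pass poorly from the uterus into the oviduct.

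The 10 genes lie on 4 chromosomes (mm10). Adam18, Adam3, Adam5 and Adam32 followed each other on the minus strand of chromosome 8 (chr8:24602246-24948804, 347 kb), with no other gene of the tables between them. Adam1b and Adam1a were neighbours on the minus strand of chromosome 5 (chr5:121500097-121521695, 21.6 kb), again with no gene between. Adam24 (plus strand, chr8:40675094-40682199) and Adam29 (minus strand, chr8:55870912-55906964) lay elsewhere on chromosome 8, apart from the rest of the 10. Adam2 was on chromosome 14 (minus strand, chr14:66027329-66077733) and Adam30 on chromosome 3 (plus strand, chr3:98160812-98163173). Whether ADAM genes outside the 10 lie near these was not examined. In the RefSeq annotation of GRCm38.p6, the coding sequence of Adam1a, Adam1b, Adam24, Adam29 and Adam30 was in 1 exon, and that of Adam2, Adam3, Adam5, Adam18 and Adam32 was spread over 19 to 22 exons.

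RefSeq promoter sequences (GRCm38.p6, 250 bases before to 50 after the annotated start) were at hand for 3 of the 10 genes. All 3 are shown. Adam1a rose from PS to RS while its neighbouring copy Adam1b did not, and no H3K27ac peak covered the Adam29 window in PS. Capitals mark letters that match one of the motifs searched. The windows are chr5:121521646-121521945 for Adam1a, chr5:121503386-121503685 for Adam1b and chr8:55906915-55907214 for Adam29, all on the minus strand:
Adam1a: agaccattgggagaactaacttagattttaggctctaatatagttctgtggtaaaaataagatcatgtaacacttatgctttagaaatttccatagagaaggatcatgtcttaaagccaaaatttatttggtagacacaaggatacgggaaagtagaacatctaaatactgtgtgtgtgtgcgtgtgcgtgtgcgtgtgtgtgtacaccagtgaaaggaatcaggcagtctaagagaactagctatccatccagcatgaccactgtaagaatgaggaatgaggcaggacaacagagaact
Adam1b: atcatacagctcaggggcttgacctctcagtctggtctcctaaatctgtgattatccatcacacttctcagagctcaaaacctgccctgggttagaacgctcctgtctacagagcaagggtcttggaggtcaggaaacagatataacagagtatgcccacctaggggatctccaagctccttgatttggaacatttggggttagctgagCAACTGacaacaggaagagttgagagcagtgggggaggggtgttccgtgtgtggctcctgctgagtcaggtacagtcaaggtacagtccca
Adam29: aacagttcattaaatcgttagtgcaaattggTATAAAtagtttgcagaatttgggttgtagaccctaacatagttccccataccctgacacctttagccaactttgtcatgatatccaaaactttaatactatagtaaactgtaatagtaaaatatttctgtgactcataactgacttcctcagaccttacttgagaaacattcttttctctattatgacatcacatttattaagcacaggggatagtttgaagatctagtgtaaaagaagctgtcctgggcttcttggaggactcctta
The motifs were chosen by name and searched on both strands. The whole cAMP response element, TGACGTCA, is bound by CREM in spermatids and was present in 1.79% of all 32851 promoter windows of this length. Its core, TGACG, is part of the whole element and was present in 20.8% of windows. Of the other motifs, the RFX half-site GTTGCC was present in 12.5% of windows and the E-box CACGTG in 7.15%. The MYB site, CAGTTG, was present in 13.7% of all windows. The TATA box, TATAAA, was present in 13.6% of them. The Adam1a window held none of these letters. The Adam1b window held 1 match to the MYB site, on the reverse strand at position -41 from the annotated start. The Adam29 window held 1 match to the TATA box letters, at position -219. Whether either match works as such a site was not tested. G and C made up 39.7% of the Adam1a window, 51.0% of that of Adam1b and 35.3% of that of Adam29.

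The 4 RNA libraries had 9655405 to 12289694 reads on genes, so a single read was at most 1.04e-05% of a library. Rnf8, one of the targeted genes, had 93 and 110 reads in PS and 61 and 50 in RS, and Scml2 had 40 and 92 in PS and 44 and 98 in RS. Which exons these reads covered is not shown by gene totals, and with the dKO alone they do not check the labels. All 10 RS markers were higher in RS, led by Prm2 and Prm1 (protamines, log2 fold changes 4.84 and 4.77), and 6 of 10 PS markers were lower, led by Piwil1 (log2 fold change -4.45) and Tex101 (-1.60). Markers of other cells moved too. All 6 Leydig cell markers, genes of steroid synthesis, the hormone INSL3 and the receptor of luteinizing hormone, were lower in RS, with a summed RPKM of 729 and 547 in the PS libraries and 68.3 and 42.6 in the RS libraries, while the 3 blood and macrophage markers tested were higher, with a summed RPKM of 0.925 and 0.954 in PS and 10.7 and 8.86 in RS. Of these, Csf1r had 24 and 18 reads in PS and 362 and 265 in RS, and Hbb-b1 and Hba-a1 had none in any library. Among spermatogonial markers 4 of 7 were higher, led by Gfra1 and Sall4 (summed RPKM 26.6 to 39.4 in PS and 46.4 to 51.3 in RS), among Sertoli cell markers 2 of the 4 tested, Rhox5 and Wt1 (2.36 to 5.87 and 4.52 to 5.73), and among peritubular markers 1 of 5, Cnn1 (5.30 to 5.64 and 5.64 to 5.89). The part of these cells in the results below was not tested. In such bulk samples, fewer cells of a type and less RNA per cell cannot be told apart. PS and RS could be purified from the same male, but the labels do not say whether samples of the same number were, so the stages were compared unpaired, and p-values measure the spread between these preparations.

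The RNA of the 10 genes made up 0.471% and 0.524% of the reads of the PS libraries and 0.532% and 0.550% of those of the RS libraries. The sum was slightly higher in both RS libraries, while its parts did not move alike. Of the 10 genes, all of which had enough reads to be tested, 3 were higher in RS (Adam1a, Adam24 and Adam29), 1 was lower (Adam2), and 6 were not called, by edgeR's quasi-likelihood test with thresholds of 0.05 for the adjusted p and 1.5 for the fold. Over all 14647 genes tested, 30.4% were called higher in RS and 27.6% lower by the same rule, and the median log2 fold change was 0.01. Counts of 3 and 1 in 10 are thus near or below the background. The log2 fold changes were 3.01 to 3.29 for the genes that rose and -0.79 to 0.57 for the other 7, with none between. Log2 fold changes below are of RS over PS, with the standard error (SE) and edgeR's adjusted p, with 2 libraries per stage, and levels are RPKM, in which reads are divided by transcript length and by depth.

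**Figure D1:**
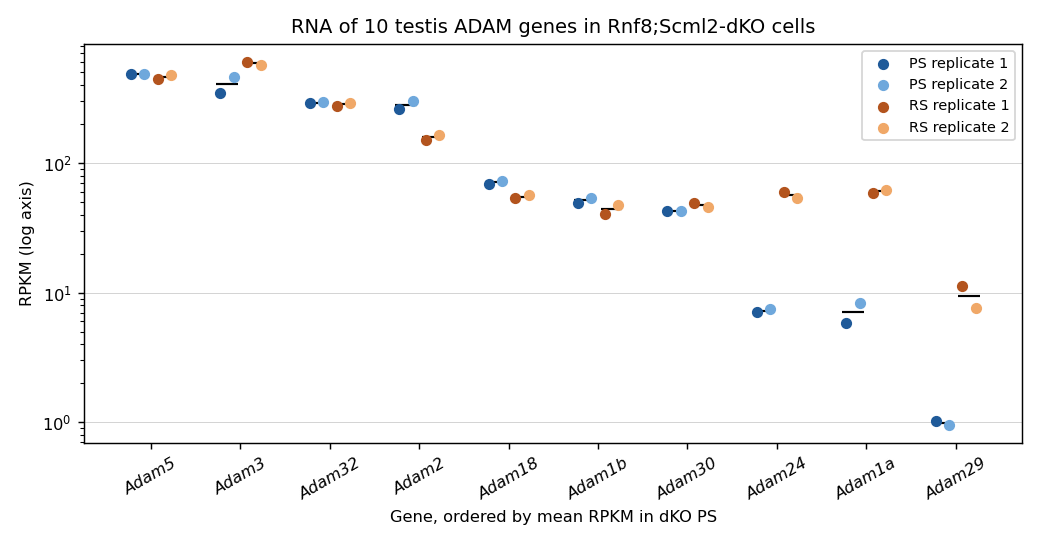
RPKM (log axis) of the 10 testis ADAM genes in the 2 PS and 2 RS libraries of the dKO, with 1 point per library and a bar at the mean of each stage. Adam24, Adam1a and Adam29 stand apart, with their RS libraries far above their PS libraries, while the RS points of Adam2 lie below its PS points.

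Adam1a and Adam1b encode the alternative partners of ADAM2. The RPKM of Adam1a, whose product stays in the endoplasmic reticulum, was 5.82 and 8.39 in PS and 59.0 and 62.2 in RS. The RS libraries of Adam1a did not come near the PS libraries, and its RNA rose (log2 fold change 3.13, SE 0.20, edgeR adjusted p = 5.56e-06). Adam1b, whose product is part of fertilin, had an RPKM of 49.4 and 54.2 in PS and 40.5 and 47.2 in RS. Its RS libraries were both below its PS libraries, by less than the test could separate (log2 fold change -0.20, SE 0.14, edgeR adjusted p = 0.218). In PS the level of Adam1b was above that of Adam1a in both libraries, and in RS the order was the reverse. Only uniquely aligned reads had been kept, so reads from stretches that both copies share would be missing from each.

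Adam2, the fertilin subunit that pairs with either ADAM1, had an RPKM of 261 and 299 in PS and 151 and 164 in RS. It was the only gene of the 10 that was called lower (log2 fold change -0.79, SE 0.13, edgeR adjusted p = 7.02e-04), and its stages did not overlap. It was still the fourth most abundant of the 10 in RS.

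Adam3, which encodes the protein needed for passage into the oviduct, was the most abundant of the 10 in RS. Its RPKM was 348 and 462 in PS and 600 and 573 in RS. PS replicate 1 was the lowest of the 4 libraries and PS replicate 2 lay nearer to RS. The difference had a log2 fold change of 0.57 (SE 0.16) and an edgeR adjusted p of 0.0113, and lay just under 1.5-fold. It was above 1.5-fold without PS replicate 2 (log2 fold change 0.85), without RS replicate 1 (0.63) and without RS replicate 2 (0.71), and 0.34 without PS replicate 1. With the replicate number as a block it was 0.59 (edgeR adjusted p = 0.00511), which would be a call. Of all genes tested, 32.5% were higher in RS at an adjusted p of 0.05 whatever their fold change, and 32.1% were lower.

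Adam18, Adam5 and Adam32, the other genes of the chromosome 8 group, encode sperm surface proteins. Adam5 had an RPKM of 486 and 482 in PS and 447 and 480 in RS, and Adam32 had 290 and 295 in PS and 276 and 290 in RS. Adam5 was the most abundant of the 10 in PS, and the stages of Adam32 overlapped (log2 fold changes -0.02, SE 0.11, and -0.01, SE 0.11, with edgeR adjusted p = 0.899 and 0.968). Adam18 was several times less abundant, with 69.5 and 72.1 in PS and 53.3 and 56.8 in RS. Both RS libraries of Adam18 were below both PS libraries, with a log2 fold change of -0.32 (SE 0.12, edgeR adjusted p = 0.0442) that was under 1.5-fold and whose adjusted p was 0.110 in DESeq2. The 4 neighbours thus ranged from -0.32 to 0.57 on the log2 scale.

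Adam24 encodes testase 1, a protease of sperm with the residues of an active site. Its RPKM was 7.06 and 7.47 in PS and 59.9 and 54.1 in RS, and its log2 fold change was 3.01 (SE 0.15, edgeR adjusted p = 3.29e-06). The separate libraries of each stage lay close together. Adam29 was the least abundant gene of the 10 in both stages, with an RPKM of 1.02 and 0.952 in PS and 11.2 and 7.62 in RS. These values rested on 32 and 29 reads in PS and 431 and 246 in RS, and the increase was called (log2 fold change 3.29, SE 0.27, edgeR adjusted p = 1.84e-05). Adam30, another ADAM gene of the testis with a single coding exon, had an RPKM of 42.4 and 42.8 in PS and 48.9 and 45.6 in RS. Both RS libraries of Adam30 were above PS, with a difference that did not pass the test (log2 fold change 0.19, SE 0.13, edgeR adjusted p = 0.211).

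By level in PS, the order was Adam5, Adam3, Adam32, Adam2, Adam18, Adam1b, Adam30, Adam24, Adam1a and Adam29. Adam32 and Adam2, and likewise Adam24 and Adam1a, overlapped between libraries and could not be ordered. In RS the order was Adam3, Adam5, Adam32, Adam2, Adam1a, Adam24, Adam18, Adam30, Adam1b and Adam29. Here the libraries of Adam1a and Adam24, of Adam24 and Adam18, and of Adam30 and Adam1b overlapped. In each of the 4 libraries Adam3 and Adam5 took more of the reads of the 10 genes than any other, with 22.8% and 27.5% for Adam3 in PS and 34.8% and 32.4% in RS. The share of Adam1a was 0.436% and 0.569% in PS and 3.90% and 4.02% in RS.

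When the genes were grouped by coding exons, a grouping made after these values had been seen, the genes with 19 to 22 coding exons had log2 fold changes of -0.79 to 0.57, and 0 of 5 rose. Of the 5 with a single coding exon, 3 rose, and Adam1b and Adam30 were the exceptions. The other testis-type ADAM genes of the tables, 10 in number and each with a single coding exon, rose without exception (log2 fold change 2.76 to 3.25, median 3.10), led by Adam26b (log2 fold change 3.25) and Adam4 (3.21). They were low throughout. Their summed RPKM was 21.6 and 23.9 in PS and 191 and 165 in RS, against 1560 and 1724 in PS and 1747 and 1781 in RS for the 10 genes described here. Across both lists 13 of 15 genes with a single coding exon rose. All 15 were read from the same fit, and both lists were chosen with earlier results known. The count is therefore no separate check of the grouping. Many of these are copies of each other, so reads shared between copies would be missing from them too. Over all genes tested 30.4% were called higher, and the share among all genes with a single coding exon was not computed. Of the 14 ADAM genes with expression in many tissues or outside the testis, 9 had enough reads, with 3 higher, among them Adam15 (log2 fold change 1.12) and Adam23 (0.99), and 2 lower, Adam11 (-1.06) and Adam17 (-0.73, the sheddase of TNF). Adam7, Adam28 and Adamdec1 had no reads in any library.

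The genes that fold and process ADAM proteins moved in both directions. Of 10 such genes, 2 rose (against 30.4% of all genes tested), 2 fell (against 27.6%) and 6 were not called. Their median log2 fold change was -0.24. Those that rose were Calr3, which encodes the testis calreticulin needed for ADAM3 (RPKM 5.78 and 9.27 in PS and 68.6 and 59.6 in RS, log2 fold change 3.14, SE 0.23, edgeR adjusted p = 1.09e-05), and Pdilt, a testis protein disulfide isomerase homologue that acts with it (9.23 and 16.8 in PS and 94.1 and 100.1 in RS, log2 fold change 2.94). Those that fell were Pcsk7, a proprotein convertase gene (log2 fold change -0.79), and Canx, the calnexin gene (-0.64). Clgn, named after its values were seen because its product calmegin is the chaperone of the ADAM1 and ADAM2 pair, had an RPKM of 501 and 536 in PS and 324 and 358 in RS, just under 1.5-fold (log2 fold change -0.56, SE 0.12).

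A second list held genes held to be needed for ADAM3 on mature sperm. Of its 9 genes, 8 were in the tables, of which 2 rose and 3 fell, with a median log2 fold change of -0.21. Prss37, a gene for an inactive serine protease homologue of the testis, rose (RPKM 11.8 and 18.5 in PS and 164 and 120 in RS, log2 fold change 3.27), as did Ace, whose testis form of angiotensin-converting enzyme is made in spermatids (log2 fold change 2.46). Tex101, which encodes a GPI-anchored protein of germ cells, fell by 1.60 on the log2 scale, and Tpst2, a tyrosine sulfotransferase gene, fell by 1.38. Tex101 is also among the PS markers above. The genes around ADAM3 thus included some with more RNA in PS and some with more in RS. Of all genes tested, 30.4% were called higher in RS and 27.6% lower, so such a mix is not particular to these genes.

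H3K27ac was read at the start sites of the 10 genes as the highest fold enrichment, over a constant background of each library, of any peak within 2 kb. Every gene had a peak in at least 3 of the 4 wild-type libraries, and Adam29 had none in PS replicate 1. At 7 start sites both RS libraries were below both PS libraries (Adam1b, Adam2, Adam3, Adam5, Adam18, Adam30 and Adam32), and at 3 both were above (Adam1a, Adam24 and Adam29). Over the 14736 genes with a peak in at least 1 library, 54.0% had RS below PS without overlap and 13.6% had RS above. The RS libraries were lower in general, with a median of 13.0 and 11.0 at all start sites with a peak against 15.2 and 16.4 in PS. With 2 libraries per stage no exact permutation test can go below a two-sided p of 0.33, and none is given.

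**Figure D2:**
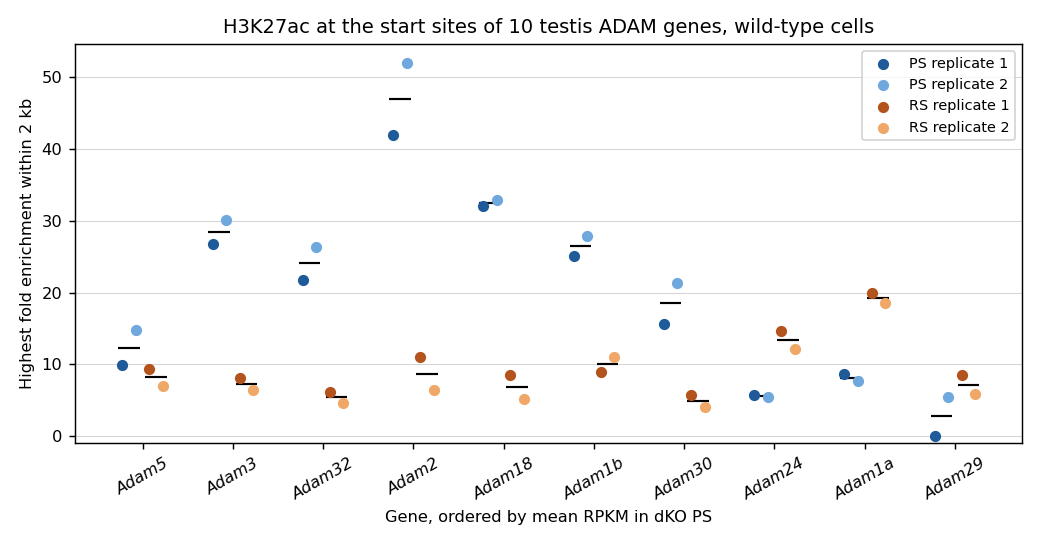
Highest H3K27ac fold enrichment within 2 kb of each start site in the 2 PS and 2 RS libraries of wild-type mice, 1 point per library, with a bar at the mean of each stage and 0 where no peak was called. Adam2 has the highest PS values and Adam1a the highest RS values, and the 3 genes at the right are the ones with RS above PS.

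The strongest H3K27ac of the 10 in PS was at Adam2, whose fold enrichment of 42.0 and 52.1 fell to 11.0 and 6.39 in RS. In PS it was above 99.4% and 99.8% of all genes, those without a peak included, and in RS above 65.3% and 59.1%. Its RS values were 0.844 and 0.579 times the library median of genes with a peak, and thus below that median. Adam18 went from 32.1 and 32.9 to 8.54 and 5.22, Adam3 from 26.8 and 30.1 to 8.14 and 6.39, and Adam32 from 21.8 and 26.3 to 6.10 and 4.64. The 3 neighbours on chromosome 8 thus had 3.92 to 4.72 times more in PS than in RS by the mean of each stage, with RNA that differed by less than 1.5-fold. Adam5, the fourth of them, was weaker in PS (9.88 and 14.8) and nearer to its RS values (9.36 and 6.97). On a scale relative to each library, as percentile or as multiple of the library median, the stages of Adam5 overlapped.

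At Adam1b the fold enrichment went from 25.1 and 28.0 to 8.95 and 11.0, and at Adam30 from 15.6 and 21.4 to 5.70 and 4.06. Both had RNA that did not differ by the test. The strongest summit of Adam1b lay at positions -791 to -552 from its start in the tables in all 4 libraries, near the more upstream start of RefSeq whose window is printed above, and the peaks of all 4 libraries covered that window whole.

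Adam1a had 8.64 and 7.67 in PS and 19.9 and 18.6 in RS. The strongest peak in both PS libraries and in RS replicate 1 was over the exon of the gene. The peak at its promoter had 5.76 and 5.48 in PS, where it covered 66 and 142 of the 300 bases printed above, and 15.9 and 18.6 in RS, where it covered all 300. Adam24 had 5.76 and 5.48 in PS, in peaks of 162 and 238 bases, and 14.6 and 12.2 in RS, in peaks of 2395 and 1064 bases. Adam29 had no peak and 5.48 in PS and 8.54 and 5.81 in RS. RS replicate 2 of Adam29 thus exceeded PS replicate 2 by little, 9 fragments lying at the summit of each. The sequence of the Adam29 promoter shown above was covered whole in both RS libraries and by no peak in PS.

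**Figure D3:**
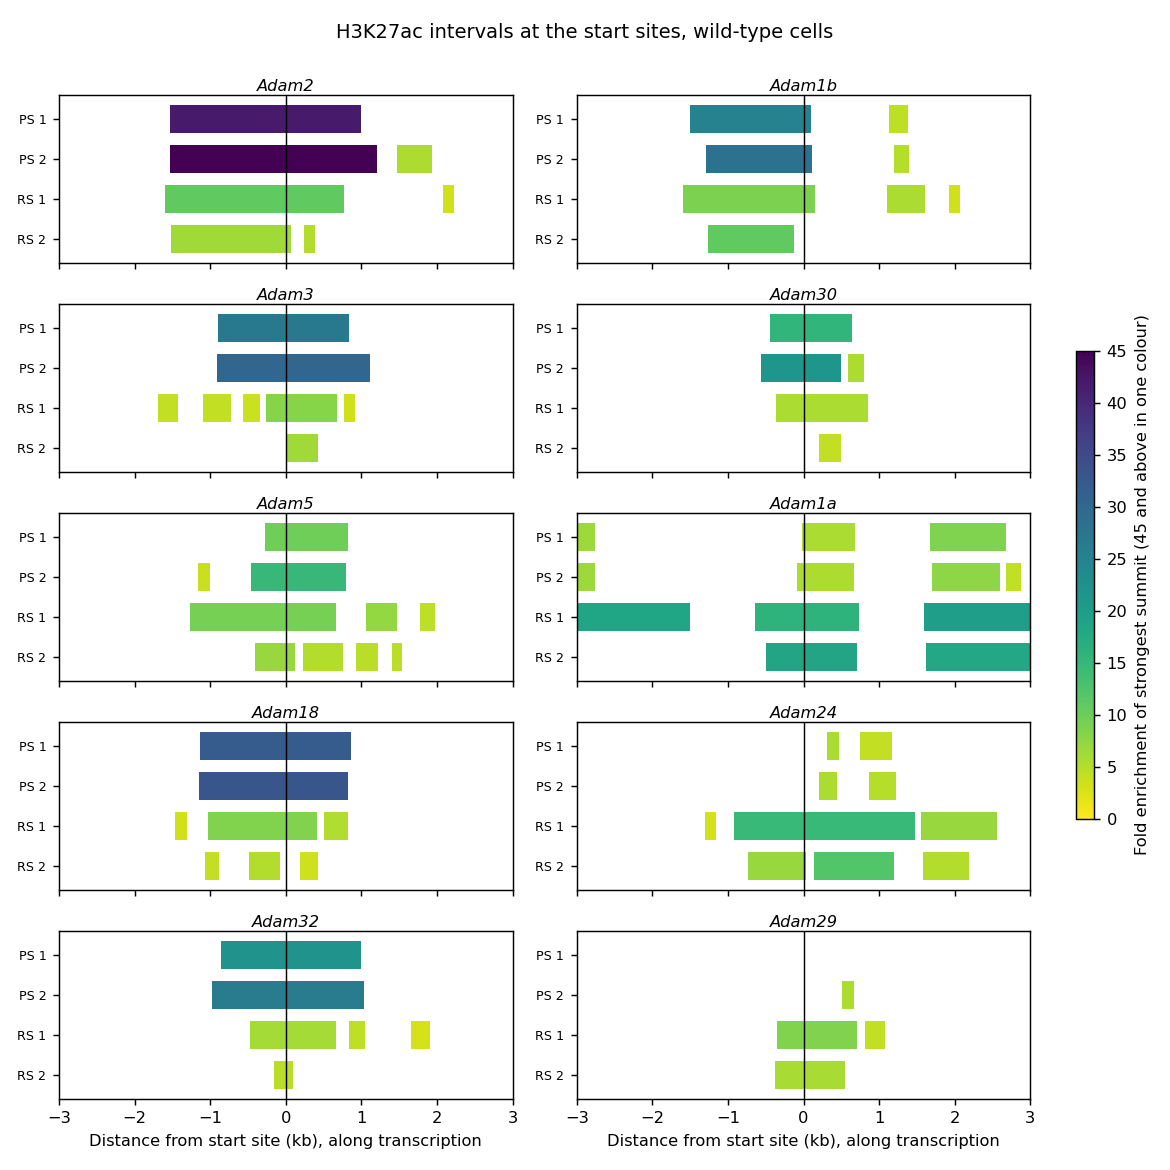
H3K27ac peaks within 3 kb of each start site by library (rows), as distance from the start along transcription in kb, coloured by the fold enrichment of the strongest summit. The left column and the upper 2 genes of the right column have darker and mostly wider bars in PS, and Adam1a, Adam24 and Adam29 have them in RS.

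The peaks of the genes with less H3K27ac in RS were also narrower in RS replicate 2. At Adam3 the strongest peak was 1740 and 2024 bases wide in PS and 932 and 422 in RS, and at Adam32 it was 1856 and 2015 bases in PS and 1142 and 245 in RS. At Adam2 it spanned 2519 and 2739 bases in PS and 2375 and 1584 in RS. Peaks named for the genes or near their start sites, promoter peaks included, numbered 18 and 22 in PS and 52 and 27 in RS, which is 0.0438% and 0.0445% of all peaks of the PS libraries and 0.0694% and 0.0589% of those of the RS libraries. RS replicate 1 had the most peaks of any library, 74919 against 41095 to 49434 in the others. Of the peaks at the ADAM genes, those farther than 2 kb from the start of their gene numbered 6 in each PS library, 26 in RS replicate 1 and 8 in RS replicate 2, which was thus close to PS.

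RNA and H3K27ac were then set side by side for each gene. The 3 genes with higher RNA in dKO RS all had more H3K27ac in wild-type RS, and Adam2, with lower RNA, had less. The 6 genes whose RNA was not called all had less. Among all genes with both measures, H3K27ac was higher in RS for 37.5% of the 3582 genes with higher RNA, and lower for 72.5% of the 3743 with lower RNA and for 62.3% of the 5584 not called. Lower H3K27ac beside RNA that was not called was thus common to most genes, and is not particular to these. Of the other testis-type ADAM genes, 9 had a peak at the start site, and H3K27ac was higher in RS at 8 and lower at 0. Among the widely expressed ADAM genes with a peak it was higher at 0 of 10 and lower at 4.

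**Figure D4:**
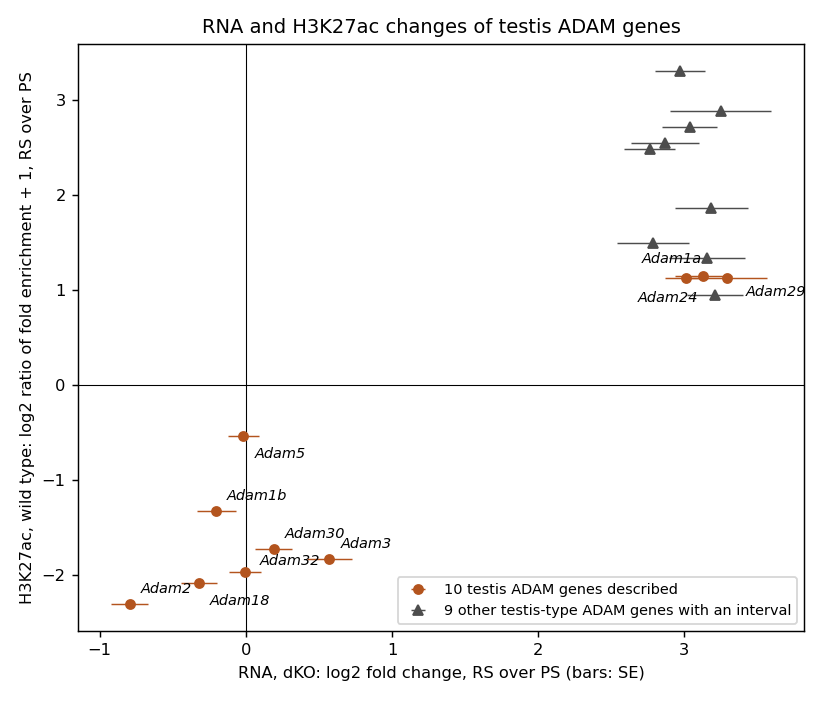
RNA change in the dKO (log2 fold change, RS over PS, with SE bars) against H3K27ac change in wild-type mice (log2 ratio of mean fold enrichment + 1, RS over PS) for the 10 genes (circles) and the 9 other testis-type ADAM genes with a peak (triangles). Adam1a, Adam24 and Adam29 lie at the upper right with the triangles, and the remaining 7 genes lie below 0 on the H3K27ac axis with RNA changes of -0.79 to 0.57.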

How the data were processed

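The libraries were grouped by assay, stage, genotype and replicate number as the labels give them. For RNA-seq (amplified with a kit that does not mark strand), the authors used STAR 2.4.2a with mm10, kept unique alignments and deposited estimated counts per RefSeq transcript and RPKM, normalized for transcript length and library size. For ChIP-seq (ChIPmentation), the authors used Bowtie 1.1.1 and MACS2 2.1.0.20140616 (versions from the submitters' processing notes). They deposited, per summit, the pileup signal, the fold enrichment (ratio to a constant background per library) and −log10 p and q values. ChIP read totals are not given. The depth is known only as 0.723 to 1.46 background fragments.

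Transcript rows were summed to 23343 genes, and the estimated counts were rounded only for DESeq2. Genes that reached 10 counts in 2 or more libraries were tested with edgeR 4.0.16 (quasi-likelihood, TMM, Benjamini-Hochberg adjustment, R 4.3.3), at an adjusted p of 0.05 and 1.5-fold. SE is the log2 fold change divided by the square root of F. Summits of 1 peak were joined and the strongest was kept. A start site without a peak counted as 0. All 10 genes are named. Of the other lists, at most the 2 largest called changes in each direction are named. The genes and lists were chosen with earlier results of these data known. Alternatives used DESeq2 1.42.0, limma 3.58.1 (log2 of RPKM + 1), other filters, windows and scales, the replicate number as a block, and each library left out. Scaling by library totals without TMM was chosen after seeing the data. Tables were handled in Python 3.11.15 with numpy 2.4.6 and pandas 2.3.3. Scripts were tested on simulated data.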

Additional observations from a re-analysis of the deposited data

How the results depend on the processing

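Adam1a, Adam24 and Adam29 were called higher and Adam2 lower under every alternative run. The number of genes called higher was 3 or 4, as Adam3 passed 1.5-fold with a filter of 50 counts, with the replicate block and without 3 of the 4 libraries (3 to 4 when each library was left out, with 1 called lower each time). Without a fold threshold 4 were higher and 2 lower, with Adam3 and Adam18 added. The replicate block gave 4 higher and 1 lower of the 10, and 4589 higher and 4134 lower of all genes, against 4448 and 4049 without it. Same-numbered preparations of PS and RS deviated together only weakly (r = 0.22 across 14647 genes). With 2 replicates per stage this value cannot show whether they share a male. Although the study's method takes PS and RS from a single male, the labels do not say that samples of the same number share one. For lack of such a label the numbers were not taken as pairs, and whether they are pairs was not tested. The count of start sites with less H3K27ac in RS was 7, or 6 by percentile or by multiple of the library median, where Adam5 overlapped. The count with more was 3 under every alternative run. Leaving out each library gave 7 to 7 and 3 to 3. Limma on log2(RPKM + 1) moved the median of all genes to -0.13, and keeping genes from 1 read moved it to 0.18. The cause was not tested. With 2 libraries per stage the precision of Adam29, at 29 and 32 reads in PS, is limited by depth.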
